A study of Fragaria x ananassa with 6 samples.

Results

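The genes described here are 4 ubiquitin ligase genes of strawberry (Fragaria x ananassa) fruit, gene18503, gene18505, FaSKP1 and FaFbox1, of 35116 gene names on a strawberry array. They were picked by their names on the array, with their change after FaPRE1 silencing already known, so their differences between the groups are given as a description, without a test. The study's annotation lists gene18503 and gene18505 as SKP1-like genes, while FaSKP1 and FaFbox1 carry the names that the array gives them. In red receptacles injected with the silencing construct, gene18503, gene18505 and FaSKP1 had signals 49.8, 43.4 and 35.7 times lower than in control receptacles. These folds come from loess ratios with an offset of 50 units added to every signal, and their size depended on the processing. FaFbox1 had a signal 2.04 times higher. This direction turned with scaling to spike-in RNA. Centring the arrays on their median gave a mean log2 ratio of -0.11 for FaFbox1, with arrays in both directions.

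SKP1, a cullin, a RING protein and an F-box protein build the SCF complex, one of the large families of ubiquitin ligases in plants. SKP1 is the adaptor that holds the F-box protein on the cullin, and the F-box protein picks the substrate that is then marked with ubiquitin for degradation by the proteasome. Plant genomes hold families of SKP1-like and F-box genes, and in Arabidopsis F-box proteins of this kind act as receptors or signalling components for auxin, gibberellin, jasmonate and strigolactone.

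The control group held 3 samples of receptacles infiltrated with Agrobacterium that carried the empty pFRN vector, and the RNAi group held 3 samples infiltrated with the same vector carrying a fragment of FaPRE1, an atypical HLH gene. Both groups had therefore gone through injection and Agrobacterium, the silencing was transient, each sample was RNA of pooled fruits freed of their achenes, and no allele of the plants was altered. One label field calls the RNAi samples overexpressing and the extraction text speaks of floral buds, whereas titles, sources and the study's methods name the RNAi construct and the fruit, which were followed. Each of 3 arrays of 2 colours held the control and the RNAi sample of 1 replicate number, and the dyes were swapped: control was in Cy5 and RNAi in Cy3 for replicates 1 and 3, and the reverse for replicate 2.

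The probe named FaPRE1 was lower in RNAi by 0.52 on the log2 scale (SE 0.11, limma adjusted p = 0.015), and the probe of gene30478, the identifier of FaPRE1, gave -0.33 (SE 0.17, adjusted p = 0.18). Whether either probe lies within the RNAi fragment was not tested. The study also measured FaPRE1 in RNAi receptacles by qRT-PCR, and those values were not used here. Between 60.7 and 72.7% of spots were well above background in control samples, against 44.1 to 60.4% in RNAi samples. Of 7 seed storage genes that mark achenes, 6 were higher in RNAi, and these 6 were chosen by the study from the same arrays (median of the 7 log2 ratios 3.45), and the log2 of their summed signal ranged from 13.31 to 13.81 in control and from 17.12 to 17.28 in RNAi samples. These shifts ran between the same groups as the members' differences, and their part in those differences was not tested. In pooled tissue, fewer cells of a type and less RNA per cell cannot be told apart.

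In the scanner readings, before any normalization, gene18503 gave a median spot signal of 32856 units in control replicate 1, 47134 in control replicate 2 and 110167 in control replicate 3. The same probe gave 205.5, 404.5 and 150 units in RNAi replicates 1, 2 and 3. All 3 control readings stood far over all 3 RNAi readings, in each dye, and every RNAi reading was still well above its local background of 37 to 65 units. For gene18505, also SKP1-like by its annotation, the control readings were 24187, 31489 and 78123 units and the RNAi readings 163, 304 and 134.5 units, in the order of the replicate numbers. The 2 groups again did not overlap, and control replicate 3 was the brightest sample for both genes in these readings.

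FaSKP1, the gene that the array names after the SCF adaptor, had 1 probe printed in 2 spots. The spots gave 12802 and 16637 units in control replicate 1, 15230 and 20335 in control replicate 2, and 46688 and 62374 in control replicate 3. In RNAi they gave 100 and 115 units in replicate 1, 219 and 252 in replicate 2, and 92.5 and 117 in replicate 3. The second spot was brighter in all 6 samples, and after normalization the ratio of RNAi over control differed between the spots by -0.03, -0.19 and -0.18 log2 units (second minus first) on the arrays of replicates 1, 2 and 3. For FaFbox1, named by the array as an F-box gene, the readings were 693.5, 196.5 and 573.5 units in control replicates 1, 2 and 3 and 221.5, 481 and 145.5 in the RNAi replicates. These readings followed the dye, with all Cy5 readings above all Cy3 readings, and in Cy3 the control reading lay between the 2 RNAi readings. Of the 30 readings of the 4 members (spot, array and channel), 30 were well above background, 0 were saturated and 0 carried an outlier flag.

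**Figure D1:**
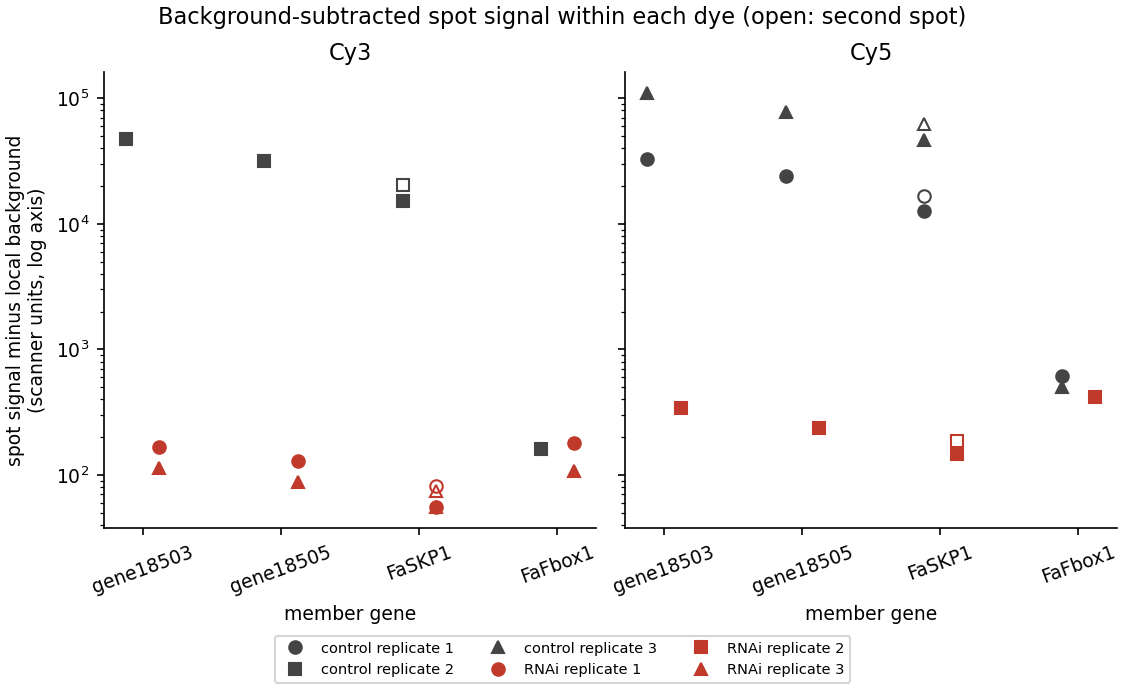
Median spot signal minus local background in scanner units (log axis) of each member, within Cy3 and within Cy5, with control samples in grey, RNAi samples in red, and the second spot of FaSKP1 as an open symbol. The SKP1 probes lie far apart between the groups in both dyes, from 12720 to 110093 units in control and from 55 to 339.5 in RNAi, whereas for FaFbox1 the Cy3 control value of 161.5 lies between the RNAi values of 178.5 and 107.5.

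Normalization within each array by loess, and then between arrays, put the samples on 1 log2 scale per probe. On it gene18503 stood at 13.77, 15.34 and 14.89 in control replicates 1, 2 and 3 and at 9.05, 8.89 and 9.15 in RNAi. The control mean was 14.67 ± 0.81 and the RNAi mean 9.03 ± 0.13 (SD, n = 3), and the lowest control sample lay 4.62 log2 units above the highest RNAi sample. gene18505 stood at 13.34, 14.75 and 14.39 in control and at 8.79, 8.48 and 8.89 in RNAi, means of 14.16 ± 0.73 and 8.72 ± 0.22 (SD, n = 3). Its groups were 4.45 log2 units apart at their nearest samples. FaSKP1 stood at 12.63, 13.91 and 13.85 in control and at 8.17, 8.13 and 8.62 in RNAi, means of 13.46 ± 0.72 and 8.31 ± 0.28 (SD, n = 3), with 4.01 log2 units between the nearest samples. In all 3 SKP1 genes control replicate 1 was the lowest control sample, and the control samples spread over 1.57, 1.41 and 1.28 log2 units for gene18503, gene18505 and FaSKP1, against 0.27, 0.41 and 0.50 in RNAi.

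FaFbox1 stood at 8.36, 7.73 and 7.60 in control replicates 1, 2 and 3 and at 8.94, 9.24 and 8.60 in the RNAi replicates. Its means were 7.90 ± 0.41 and 8.92 ± 0.32 (SD, n = 3), and the highest control sample lay 0.24 log2 units below the lowest RNAi sample. Groups that did not overlap were frequent on these arrays, for 26% of 21098 tested genes with RNAi lower, as for gene18503, gene18505 and FaSKP1, and for 24.7% with RNAi higher, as for FaFbox1. A tested gene is one with a probe well above background on all 3 arrays in at least 1 group, and all 4 members were among them. Since the members were picked on this contrast, nothing is read from their place among those genes.

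**Figure D2:**
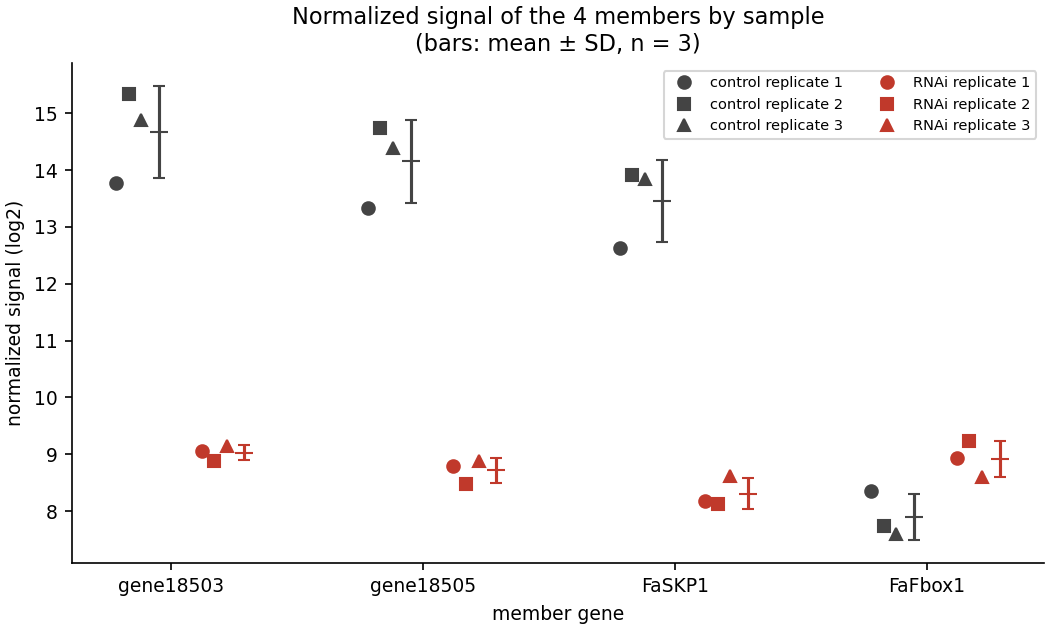
Normalized log2 signal of the 4 members in each sample (symbols by replicate number, control in grey and RNAi in red), with the mean and SD of 3 samples beside them. The groups of gene18503, gene18505 and FaSKP1 lie over 4 log2 units apart. Those of FaFbox1 are separated by 0.24 log2 units, with RNAi higher under this scaling. The mean log2 ratio of FaFbox1 was -1.06 with spike-in scaling. With median centring it was -0.11, where the 3 arrays gave -0.86, 1.21 and -0.67.

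Taken within each array, the log2 ratio of RNAi over control of gene18503 was -4.72, -6.46 and -5.74 on the arrays of replicates 1, 2 and 3, a mean of -5.64 (SD 0.87, n = 3). These are signals 26.3, 87.8 and 53.5 times lower in RNAi. For gene18505 the ratios were -4.55, -6.27 and -5.49, a mean of -5.44 (SD 0.86, n = 3), or 23.5, 77.3 and 45 times lower. For FaSKP1 they were -4.47, -5.78 and -5.22, a mean of -5.16 (SD 0.66, n = 3), or 22.1, 55 and 37.3 times lower. The array of replicate 2, the one with RNAi in Cy5, gave the lowest ratio of all 3 SKP1 genes, and the array of replicate 1 gave the highest. FaFbox1 gave 0.58, 1.51 and 0.99, a mean of 1.03 (SD 0.47, n = 3), with its highest ratio on the array of replicate 2 too.

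By the mean log2 ratio, gene18503, gene18505 and FaSKP1 held ranks 1, 2 and 3 from the lowest of 21098 genes, and they were the only 3 below -5 (0.0142%). With ratios below -4, 6 genes were found (0.0284%). The genes next to them in rank were FaFenilCBER (-4.76), gene34867 (-4.28), gene30779 (-4.11), gene30780 and FaATT1 (-3.93), with names as the array gives them. FaFbox1 held rank 1286 from the highest. Over all genes tested, the log2 ratios ranged from -5.64 to 5.04 with a median of -0.04.

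The ratios of the 3 SKP1 genes lay close to each other. On each array gene18503 was a little lower than gene18505, by 0.16, 0.18 and 0.25 log2 units, a mean difference of -0.20 (SD 0.04, n = 3). Against FaSKP1, gene18503 differed by -0.25, -0.67 and -0.52 (mean -0.48, SD 0.21), and gene18505 by -0.09, -0.49 and -0.27 (mean -0.28, SD 0.20). The order of the ratios, gene18503 below gene18505 below FaSKP1, was thus the same on all 3 arrays after loess. With the processed signals of the scanner software it held only on the array of replicate 2. There gene18503, gene18505 and FaSKP1 gave -5.23, -5.12 and -5.57 for replicate 1, and -6.49, -6.12 and -6.23 for replicate 3. After loess the mean differences were smaller than the SD over arrays of each gene's own ratio. That SD also holds variation that the genes share on an array, which the differences leave out. Whether the probes of these 3 genes can bind each other's transcripts was not tested, because no probe or transcript sequence was used here, and their values are therefore not 3 separate observations for certain.

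The order of the arrays that the 3 SKP1 genes shared, with replicate 2 lowest, then 3, then 1, was also that of 38 (28.8%) of the 132 other genes that passed the test with a ratio below -2, whose medians were -2.5, -2.67 and -2.62 on the arrays of replicates 1, 2 and 3. It was the order of 1364 (36.1%) of all 3782 other genes called lower, and of 21.3% of all genes tested. Between the arrays of replicates 1 and 2 the SKP1 genes moved by over 1 log2 unit. The dye orientation differs between these arrays, so that in this pair a dye effect and a difference between samples cannot be told apart. The arrays of replicates 1 and 3 had the same dye orientation. They gave -4.72 and -5.74 for gene18503, -4.55 and -5.49 for gene18505, and -4.47 and -5.22 for FaSKP1.

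Scaled to 10 spike-in probes, which report RNA added in known amount, the signal of the kept genes as a whole was lower in RNAi, with RNAi minus control at -2.10 log2 units in Cy3 and -2.09 in Cy5. Relative to the spike-ins, gene18503 stood at 1.91, 4.08 and 4.03 in control replicates 1, 2 and 3 and at -4.77, -4.68 and -5.05 in RNAi. FaSKP1 stood at 0.73, 2.65 and 3.00 in control and at -6.07, -5.72 and -5.87 in RNAi, and gene18505 at 1.47, 3.49 and 3.53 in control and at -5.13, -5.21 and -5.43. The RNAi samples of each SKP1 gene lay close together, and control replicate 1 lay below the other control samples. FaFbox1 stood at -3.83, -4.11 and -3.76 in control and at -4.66, -4.39 and -5.13 in RNAi. Here every RNAi sample was below every control sample. The kept genes as a whole stood at -4.20, -3.65 and -3.19 in control and at -5.62, -5.78 and -5.87 in RNAi. These did not overlap either, and the share of single genes without overlap on this scale was not counted.

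Compared within Cy3 and within Cy5, RNAi minus control on this spike-in scale was -8.99 and -7.65 log2 units for gene18503, -8.77 and -7.71 for gene18505, and -8.62 and -7.59 for FaSKP1. For FaFbox1 it was -0.78 and -0.60. The 3 SKP1 genes were lower on both the loess scale and the spike-in scale, while FaFbox1 was higher on the loess scale and lower on the spike-in scale.

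The genes whose pattern came nearest to a member were sought by the Euclidean distance of the normalized log2 signals over 6 samples, each gene centred on its own mean. For gene18503 they were gene18505 (0.29), FaSKP1 (0.70) and FaFenilCBER (1.57). For gene18505 they were gene18503 (0.29), FaSKP1 (0.48) and FaFenilCBER (1.33), and for FaSKP1 they were gene18505 (0.48), gene18503 (0.70) and gene34867 (1.14). The 3 SKP1 genes were thus each other's nearest genes, the next gene lying at a distance of 1.14 or more. This distance depends largely on the size of the group difference, which was known when the members were picked. Nothing is read from their nearness. FaFbox1 had closer company in gene00519 (0.15), gene11173 (0.18) and gene15349 (0.20), whose mean ratios were 0.99, 1.17 and 0.95, and no other member was among its 3 nearest genes.

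The identifiers gene18503 and gene18505 are 2 apart in number, so the 19 identifiers from gene18495 to gene18513, all on the array, were read as a series, though their places in the genome were not checked. Of these, 14 were tested genes other than the members, and 2 of them fell and 3 rose (35.7% called). Over all 21098 genes tested 34.8% were called at a limma adjusted p under 0.05, 17.9% lower and 16.9% higher. gene18504, which stands between both SKP1-like genes in number, gave -0.29, 0.10 and -0.18 on the 3 arrays, a mean of -0.12 (SE 0.13, adjusted p = 0.47). The 2 that fell were gene18508 (-0.96, SE 0.11, adjusted p = 0.0026) and gene18511 (-0.53, SE 0.15, adjusted p = 0.042). Those that rose were gene18497 (1.35, SE 0.13, adjusted p = 0.0018), gene18495 (1.22, SE 0.13, adjusted p = 0.0023) and gene18510 (0.55, SE 0.13, adjusted p = 0.026). The 14 genes spanned -0.96 to 1.35 with a median of -0.14, above the ratios of gene18503 and gene18505 on every array. As gene18503 and gene18505 had the lowest mean ratios of all genes tested, nothing is read from this. The call of gene18511 was lost without replicate 2 (adjusted p = 0.15) or without replicate 3 (0.17), and that of gene18510 without replicate 3 (0.16). With the samples fitted as separate groups and no replicate block, gene18511 was not called either (adjusted p = 0.12).

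**Figure D3:**
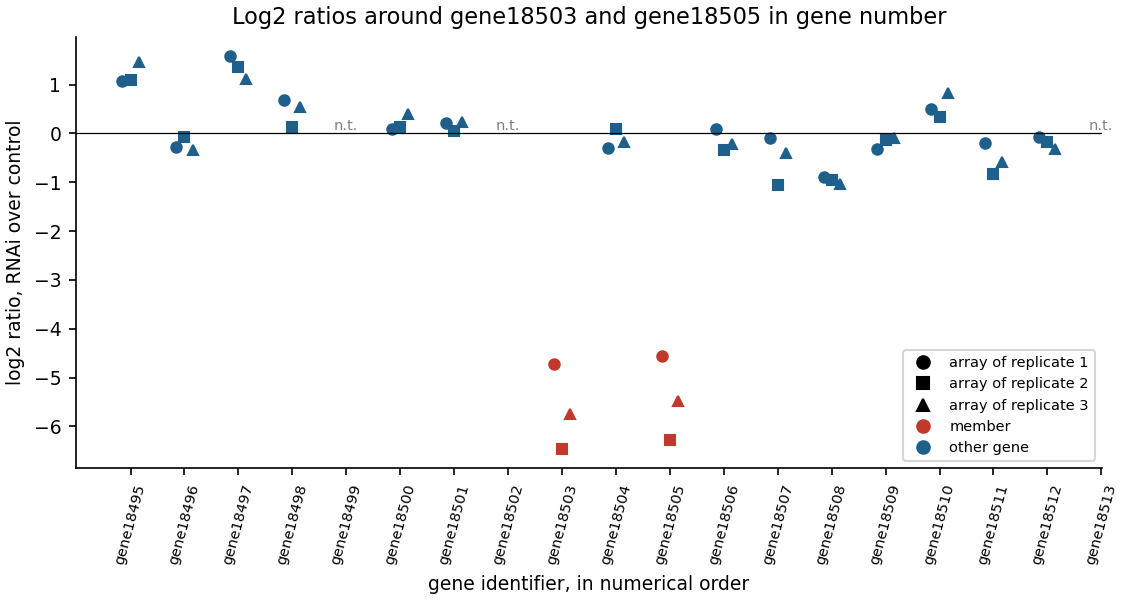
Log2 ratio of RNAi over control on each of the 3 arrays for the identifiers gene18495 to gene18513 in numerical order, with the members in red, other genes in blue, and n.t. where no probe passed the filter. gene18503 and gene18505 lie between -4.55 and -6.46, and gene18504 between them in number lies from -0.29 to 0.10.

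The other ubiquitin genes were taken from the study's descriptions of identifiers up to gene01722, which do not depend on how a gene moved. Of 112 such genes 60 were tested, of which 10 fell, 9 rose and 41 did not pass the test (31.7% called, beside 34.8% of all genes), with a median log2 ratio of -0.18 against -0.04 over all genes. Without replicate 3 the counts were 1 that fell and 3 that rose, and without replicate 2 they were 5 and 6. One of them, gene01554, was also among the genes that the study selected on these samples.

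F-box genes, the class of FaFbox1, numbered 71, of which 32 were tested, 4 fell and 6 rose (31.2% called), with a median of -0.11 and a range from -0.63 to 2.09. FaFbox1, at 1.03, lay within that range, whose top was gene00651, a kelch-repeat F-box gene named after its value was seen (2.09, SE 0.33, adjusted p = 0.0073). Among those named by a fixed rule, gene00657, also described as a kelch-repeat F-box gene, rose by 1.01 (SE 0.16, adjusted p = 0.0066), and gene01525 of the same description fell by 0.48 (SE 0.12, adjusted p = 0.029, lost without replicate 2 or 3 at 0.096 and 0.19). Relative to the spike-ins gene00657 and gene00651 gave -1.09 and -0.01.

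F-box genes with a named role in hormone or light signalling or in the cell cycle passed the test in 1 of 6 cases, beside 34.8% of all genes tested. gene01376, described as AUXIN SIGNALING F-BOX 2, an auxin receptor in Arabidopsis, gave 0.12 (adjusted p = 0.57). gene00195, which resembles GID2, a component of gibberellin signalling in rice, gave -0.01 (adjusted p = 0.96), and gene00915, a homolog of MAX2, which acts in strigolactone signalling in Arabidopsis, gave 0.00 (adjusted p = 0.98). Both genes described as SKP2A, which takes part in cell cycle control in Arabidopsis, gave -0.17 (gene00995, adjusted p = 0.42) and -0.56 (gene00996, adjusted p = 0.11, or 0.035 without replicate 2). The one that passed was gene00090, described as associated with phytochrome A, with 0.35 (SE 0.11, adjusted p = 0.049), and that call was lost when any replicate was left out (adjusted p = 0.13, 0.12 and 0.20 without replicates 1, 2 and 3) and with no replicate block (0.057).

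Of 12 tested genes of other ubiquitin ligases 2 fell and 2 rose, 33.3% beside 34.8% of all genes tested. The clearest were gene00502, a RING ligase described as DRIP2-like (-0.56, SE 0.11, adjusted p = 0.013), and gene00681, described as ATL46 (0.71, SE 0.12, adjusted p = 0.008), both lost without replicate 3 at 0.098 and 0.06. The 3 tested genes of ubiquitin-conjugating (E2) enzymes, which hand ubiquitin to the ligase, gave -0.30 to 0.37, and of 3 genes of the proteasome, which degrades ubiquitin-marked proteins, gene00972, or 33.3% of them, fell (-0.54, SE 0.13, adjusted p = 0.028, lost without replicate 2 or 3 at 0.11 and 0.15). Of 2 BTB genes, a class that links substrates to another cullin, gene01554 rose by 2.20 (SE 0.15, adjusted p = 0.00079). Among 8 other genes of the list 3 fell and 0 rose. These were 37.5% called, beside 34.8% of all genes tested called in either direction and 17.9% called lower. The smallest p was that of gene01135, which carries ubiquitin and WLM domains (-1.56, SE 0.11, adjusted p = 0.00085).

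A further 10 ubiquitin genes were selected by the study on these samples and are no independent evidence of a direction, and of these 6 were lower and 4 higher. RING ligase genes were the lowest, gene10350, similar to AIP2, an Arabidopsis ligase of abscisic acid signalling, at -2.86, gene20476 at -2.69, gene03289 at -2.62 and gene10349 at -2.53, followed by gene30404 at -1.89 and gene31679, a SUMO gene, at -1.57. Higher were gene19256 at 1.89, gene28958 at 1.61, gene08303 at 1.30 and gene02604 at 1.22. The ratios of gene18503, gene18505 and FaSKP1 lay below all of these, as they did below every other gene tested, so nothing is read from this. Relative to the spike-ins, a shift of -2.09, the ubiquitin genes and neighbours in number named here as higher lay below 0, other than gene01554 (0.11).

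**Figure D4:**
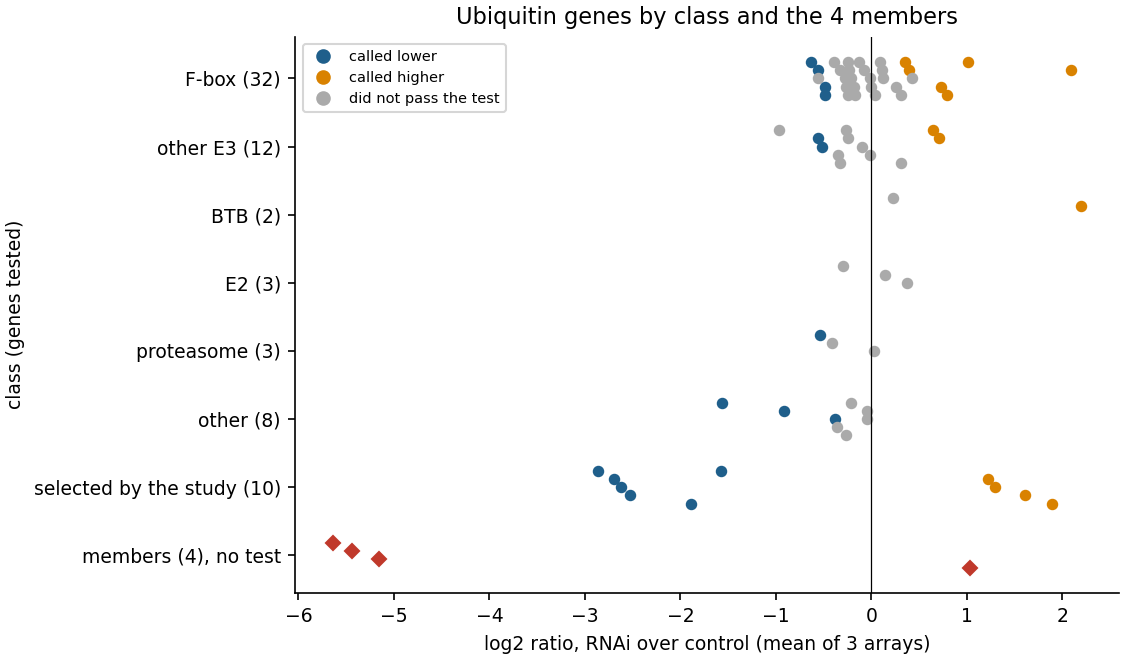
Mean log2 ratio of RNAi over control over 3 arrays for tested ubiquitin genes by class, with the 10 genes that the study selected and the 4 members in rows of their own, coloured by the limma call (members have no test). The 60 genes not chosen by their change lie from -1.56 to 2.20, gene18503, gene18505 and FaSKP1 lie from -5.64 to -5.16, and FaFbox1 lies at 1.03.

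Under other processing of the ratio within each array, the log2 ratio of gene18503 ran from -5.23 without replicate 2 to -7.17 with median centring, that of gene18505 from -5.02 to -6.97 and that of FaSKP1 from -4.84 to -6.68. Adding the shift of all kept genes against the spike-ins (-2.09) to the loess ratios, a constant spike-in shift, gave -7.73, -7.53 and -7.25. The signals set directly against the spike-ins within each dye, without loess, gave means of both dyes of -8.32, -8.24 and -8.10, and -0.69 for FaFbox1. FaFbox1 ran from 0.79 without replicate 2 to 1.41 with the processed signals of the scanner software, and was -0.11 with median centring of the arrays and -1.06 with the constant spike-in shift. With median centring its 3 arrays gave -0.86, 1.21 and -0.67, so that the arrays of replicates 1 and 3, with RNAi in Cy3, were lower and that of replicate 2, with RNAi in Cy5, was higher. The order of gene18503, gene18505 and FaSKP1 held for the mean in each of these settings other than the processed signals, where FaSKP1 (-5.99) stood between gene18503 (-6.11) and gene18505 (-5.93). Directly against the spike-ins within Cy5 alone, gene18505 (-7.71) stood below gene18503 (-7.65).

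**Figure D5:**
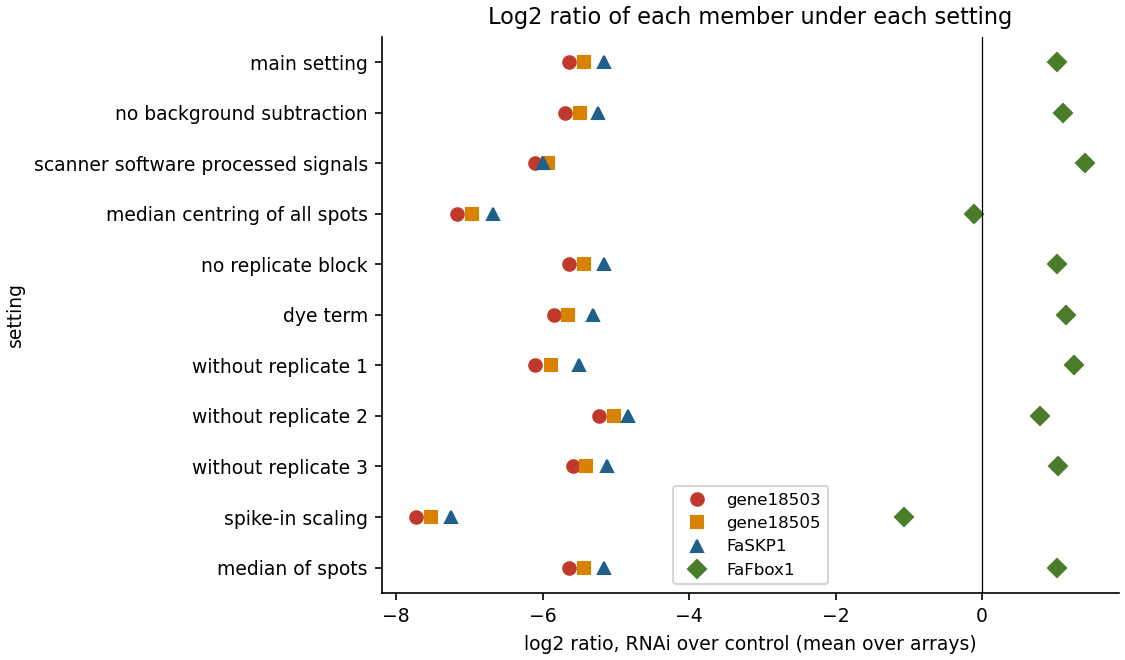
Mean log2 ratio of RNAi over control of each member (horizontal axis) under each processing setting (vertical axis), with a line at 0. gene18503, gene18505 and FaSKP1 lie at or below -4.84 in every setting shown, whereas FaFbox1 lies at or above 0.79 except with median centring (-0.11) and spike-in scaling, here the loess ratio plus a constant shift of -2.09 (-1.06).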

How the data were processed

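The deposited files are the scanner output of 3 two-colour arrays, made by the authors with version 10.7 of Agilent Feature Extraction. The signal, background and processed columns hold intensity values, per the file headers. The processed column was already background-subtracted and dye-normalized. The log ratio column (log10) was not used.

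The analysis used limma 3.58.1 under R 4.3.3. Median signals were background-corrected by normexp (offset 50), ratios were normalized by loess within each array, spots were averaged per probe and probes per gene, and signals per sample were scaled between arrays by Aquantile. Probes entered the test if, in 1 group or the other, 50% or more of their spots exceeded background clearly on each of the 3 arrays, which left 21098 genes. One log2 ratio per array was tested with lmFit and eBayes, with Benjamini-Hochberg adjustment (threshold 0.05). Samples of 1 replicate number lay on 1 array, and the numbers therefore pair them. Their deviations from the group means correlated across genes at 0.43, -0.04 and 0.17. The study's methods call its fruit pools independent. Nothing states that the pools came from separate plants, so p-values measure the spread between these samples. The limited number of arrays sets the precision.

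The members and gene lists were chosen with earlier results of these data known. Genes named are the members, F-box genes described by a hormone, light or cell cycle role, the gene with the smallest p in each direction per class, the genes the study selected, called neighbours in number, and the 3 nearest patterns per member. The procedure was tested on simulated data. Gene descriptions are the study's. No array name matched the annotation table at hand, and no sequence was used here.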

Additional observations from a re-analysis of the deposited data

How the results depend on the processing

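Signals of different probes were not compared, and the precision is limited by 3 arrays. Without background subtraction, with a dye term or with the median of spots, members kept their direction and stayed within 1 SD. With processed signals FaSKP1 moved to -5.99. Median centring gave -7.17 for gene18503, -6.97 for gene18505, -6.68 for FaSKP1 and -0.11 for FaFbox1. The last turned in its mean but not on the array of replicate 2. Median centring moved the median of all genes from -0.04 to -0.86. It left 0 genes called by limma (9061 at an unadjusted p under 0.05), 0 lower and 0 higher in the ubiquitin list. Among the named genes called in the main setting, it also turned gene00090 (-0.33), gene00657 (-0.36), gene02604 (-0.13) and gene18510 (-0.98). gene01376, called in neither setting, went from 0.12 to -1.42. The loess ratios plus a constant spike-in shift of -2.09 gave -7.73, -7.53 and -7.25 for the SKP1 genes and -1.06 for FaFbox1, while direct spike-in differences without loess averaged -8.32, -8.24, -8.10 and -0.69. The cause of these changes was not tested.

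The 7350 calls among all genes became 3458 to 7125 when 1 replicate was left out, lowest without replicate 3. In the ubiquitin list the number that fell was then 1 to 11 and the number that rose 3 to 8. The stricter filter left 6 that fell, with fewer genes tested (44), as did the methods' t-test, which called 4934 genes. Leaving out a replicate moved gene18503 between -6.10 and -5.23, gene18505 between -5.88 and -5.02, FaSKP1 between -5.50 and -4.84 and FaFbox1 between 0.79 and 1.25. Without the array as replicate block, 7358 genes were called, with 10 and 9 in the list, the members' ratios were -5.64, -5.44, -5.16 and 1.03, and gene00090 and gene18511 lost their call. Of the values of the named genes other than members, 263 kept their side of the threshold. Another 47 were no longer called, 1 was newly called, and 4, all of genes called in the main setting, turned. Genes not called in the main setting were sorted by the threshold alone, and some of them changed sign, such as gene01376.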
